A study of Rattus norvegicus with 26 samples.

Results

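The genes of the Wnt and Notch pathways were examined in RNA from the dentate gyrus (DG), the hippocampal field whose granule neurons continue to be added in adult rodents. Members were chosen by gene name as the Wnt, Fzd, Dkk, Sfrp, Notch, Dll, Jag, Hes and Hey genes together with Lrp5, Lrp6, Axin2, Lef1, Tcf7l2, Ctnnb1 and Rbpj. Of 17910 gene IDs, 57 matched, and 52 of these passed a minimum mean of 5 normalized counts and were among the 15595 genes tested. The study asked whether the senolytic ABT-263 (navitoclax), a drug that kills senescent cells by blocking BCL-2 family proteins, alters the effects of the chemotherapy drug doxorubicin on the brain. The 26 animals were male F344 rats aged 6 months, and each gave 1 library from the DG of a single hemisphere. Veh (n = 10) received vehicle, Dox (n = 8) received injections of doxorubicin, and Dox + ABT (n = 8) received doxorubicin and, by gavage, ABT-263. The paper took Veh from a continuing study of senolytics in brain aging, and describes gavage of vehicle for it but no injections. Effects of treatment therefore cannot be told apart from differences of study or of injection wherever Veh is compared. No group received ABT-263 without doxorubicin, so the effect of ABT-263 alone could not be read.

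Wnt proteins are secreted lipid-modified ligands that bind Frizzled (Fzd) receptors. With the co-receptors Lrp5 and Lrp6 they stabilize beta-catenin (Ctnnb1), which acts with Lef1 and Tcf7l2 on target genes such as Axin2, itself a negative regulator of the pathway. Notch receptors are cleaved after they bind Dll or Jag ligands on a neighboring cell, and the released fragment joins Rbpj and switches on Hes and Hey repressors. In the DG both pathways are known for their part in keeping neural stem cells and in the formation of new granule cells, and Notch also acts in vessels and in their mural cells.

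The promoters of 4 target genes through which these pathways are commonly read (Hes1, Hes5, Hey2 and Axin2) are shown because the results turn on whether targets were called beside ligands and receptors. That of the ligand Wnt9a is shown as a called member with the Rbpj core, chosen after its values were seen. The windows run from 250 bases before the annotated start to 50 bases after it and come from RefSeq (GRCr8). This is another assembly than the rn6 used for the counts, so the windows were matched by gene symbol. Capitals mark the Rbpj core GTGGGAA or its reverse complement TTCCCAC in Hes1, Hes5, Hey2 and Wnt9a, and the Tcf/Lef core CTTTGAT in Axin2.
Hes1 (chr11:84212996-84213295, minus strand): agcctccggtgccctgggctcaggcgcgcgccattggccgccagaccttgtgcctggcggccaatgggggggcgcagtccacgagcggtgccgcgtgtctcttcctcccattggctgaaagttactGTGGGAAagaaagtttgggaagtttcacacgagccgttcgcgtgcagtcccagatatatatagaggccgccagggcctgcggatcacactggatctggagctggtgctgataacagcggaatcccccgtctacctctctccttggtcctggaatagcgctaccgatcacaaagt
Hes5 (chr5:170804327-170804626, plus strand): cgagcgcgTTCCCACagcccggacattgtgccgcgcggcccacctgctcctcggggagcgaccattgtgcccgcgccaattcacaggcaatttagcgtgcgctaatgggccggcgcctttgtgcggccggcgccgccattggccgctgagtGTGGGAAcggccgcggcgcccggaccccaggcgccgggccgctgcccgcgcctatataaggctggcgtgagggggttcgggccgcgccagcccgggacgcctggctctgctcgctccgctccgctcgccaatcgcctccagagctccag
Hey2 (chr1:28640850-28641149, plus strand): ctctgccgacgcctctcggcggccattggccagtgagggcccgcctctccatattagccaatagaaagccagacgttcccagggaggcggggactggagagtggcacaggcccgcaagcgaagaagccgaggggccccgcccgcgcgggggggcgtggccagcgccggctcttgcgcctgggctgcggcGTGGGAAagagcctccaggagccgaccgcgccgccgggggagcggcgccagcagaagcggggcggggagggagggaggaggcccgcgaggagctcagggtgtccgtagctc
Axin2 (chr10:94398535-94398834, plus strand): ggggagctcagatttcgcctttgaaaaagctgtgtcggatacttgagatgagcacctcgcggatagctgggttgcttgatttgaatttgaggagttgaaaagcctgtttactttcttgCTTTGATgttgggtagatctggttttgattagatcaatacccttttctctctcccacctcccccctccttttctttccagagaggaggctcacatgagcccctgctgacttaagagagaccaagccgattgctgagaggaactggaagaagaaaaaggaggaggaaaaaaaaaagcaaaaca
Wnt9a (chr10:44593441-44593740, plus strand): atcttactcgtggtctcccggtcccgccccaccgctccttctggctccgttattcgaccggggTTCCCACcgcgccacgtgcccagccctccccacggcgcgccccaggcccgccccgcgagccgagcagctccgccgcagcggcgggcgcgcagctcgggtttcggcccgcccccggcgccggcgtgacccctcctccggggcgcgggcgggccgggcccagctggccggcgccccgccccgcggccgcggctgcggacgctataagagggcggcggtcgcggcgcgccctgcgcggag

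On either strand, GTGGGAA was present in 6.29% of the 33469 promoters in the table and in 8 of the 42 members with an entry, namely Dll1, Fzd9, Hes1, Hes5, Hey2, Lef1, Sfrp5 and Wnt9a. The Hes5 window held 2 copies, 242 and 99 bases before the start. CTTTGAT was present in 3.63% of all promoters and in Axin2 alone among the members. No member held both motifs, and a match describes letters only.

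Libraries differed in a way that crossed the groups, and this is given first because it touches several results. After subtracting group means, the leading principal component held 28.4% of the variance and split the libraries into 16 of a first kind (scores of −37.9 to −0.818) and 10 of a second kind (21.0 to 38.3). The first kind held 4 Veh, 5 Dox and 7 Dox + ABT libraries, and the second kind held 6 Veh, 3 Dox and 1 Dox + ABT. Ribosomal protein genes took 0.62% to 1.22% of the signal in the first kind and 1.29% to 2.06% in the second. Dox 1 and Dox 2 also stood apart from the other Dox rats in several members: Wnt10b read 149 and 138 normalized counts in them and at most 34.3 in the other 6. Estimated depth ran from 10166000 to 24328000 reads per library.

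In Dox relative to Veh, 2 of 4 Notch ligands, 1 of 4 Notch receptors, 1 of 16 Wnt ligands and 1 of 12 Wnt receptors were called higher, and 1 Wnt receptor lower. At an unadjusted limma p under 0.01, 6 of 52 members passed (11.5%), against 2.87% of all 15595 genes tested. Of these 5 were higher, where 1.02% of all genes were called higher, and 1 was lower, where 1.85% were called lower. The ligands Dll4 and Jag1, the receptor Notch4, the Wnt ligand Wnt9a and the receptor Fzd6 rose, and the receptor Fzd2 fell. Across the members, 28 differences were positive and 24 negative, with a median log2 difference of 0.022 beside 0.00498 over all genes. With Dox 1 and Dox 2 left out together, 1 member passed (1.92%), Fzd6, and 181 of all genes passed (1.16%) instead of 448. No member passed an adjusted p under 0.05 (Benjamini-Hochberg over all genes in limma, smallest 0.157), which 0.0192% of all genes did. An unadjusted p under 0.05 was reached by 11 of 52 members, where 10.2% of all genes did.

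In Dox + ABT relative to Veh, 3 of 16 Wnt ligands and 2 of 12 Wnt receptors were called lower, and of the 4 Notch receptors 1 was called higher and 1 lower. Here 9 of 52 members passed (17.3%), against 7.84% of all genes. Of these 3 were higher (3.89% of all genes) and 6 lower (3.95%). Wnt4, Wnt7b, Wnt16, Fzd2, Fzd9 and Notch3 fell, while Fzd6, Jag1 and Notch2 rose. After adjustment for kind of library 3 members passed, namely Wnt7b, Wnt16 and Notch3, where 214 of all genes passed (1.37%). Within the first kind of library 2 members passed, Wnt7b lower and Sfrp1 higher, where 172 of all genes passed (1.1%). The smallest adjusted p among members in limma was 0.108. At an unadjusted p under 0.05 the members did not stand out: 12 of 52 passed, a share close to the 22.5% of all genes. Both of these comparisons use the same Veh rats.

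In Dox + ABT relative to Dox, 3 of 52 members passed (5.77%), against 4.03% of all genes. All 3 were lower, where 2.32% of all genes were called lower and 1.71% higher. Wnt9a, Wnt16 and Fzd9 fell in the rats that also received ABT-263. The median log2 difference of the members was −0.07, beside 0.00139 over all genes, with 19 positive and 33 negative, and the smallest adjusted p among members in limma was 0.125. At an unadjusted p under 0.05, 6 of 52 members passed, a share below the 12.7% of all genes. With Dox 1 and Dox 2 left out, 2 members passed (3.85%, against 2.97% of all genes), and without Dox + ABT 1 alone 5 passed (9.62%, against 4.36%).

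**Figure D1:**
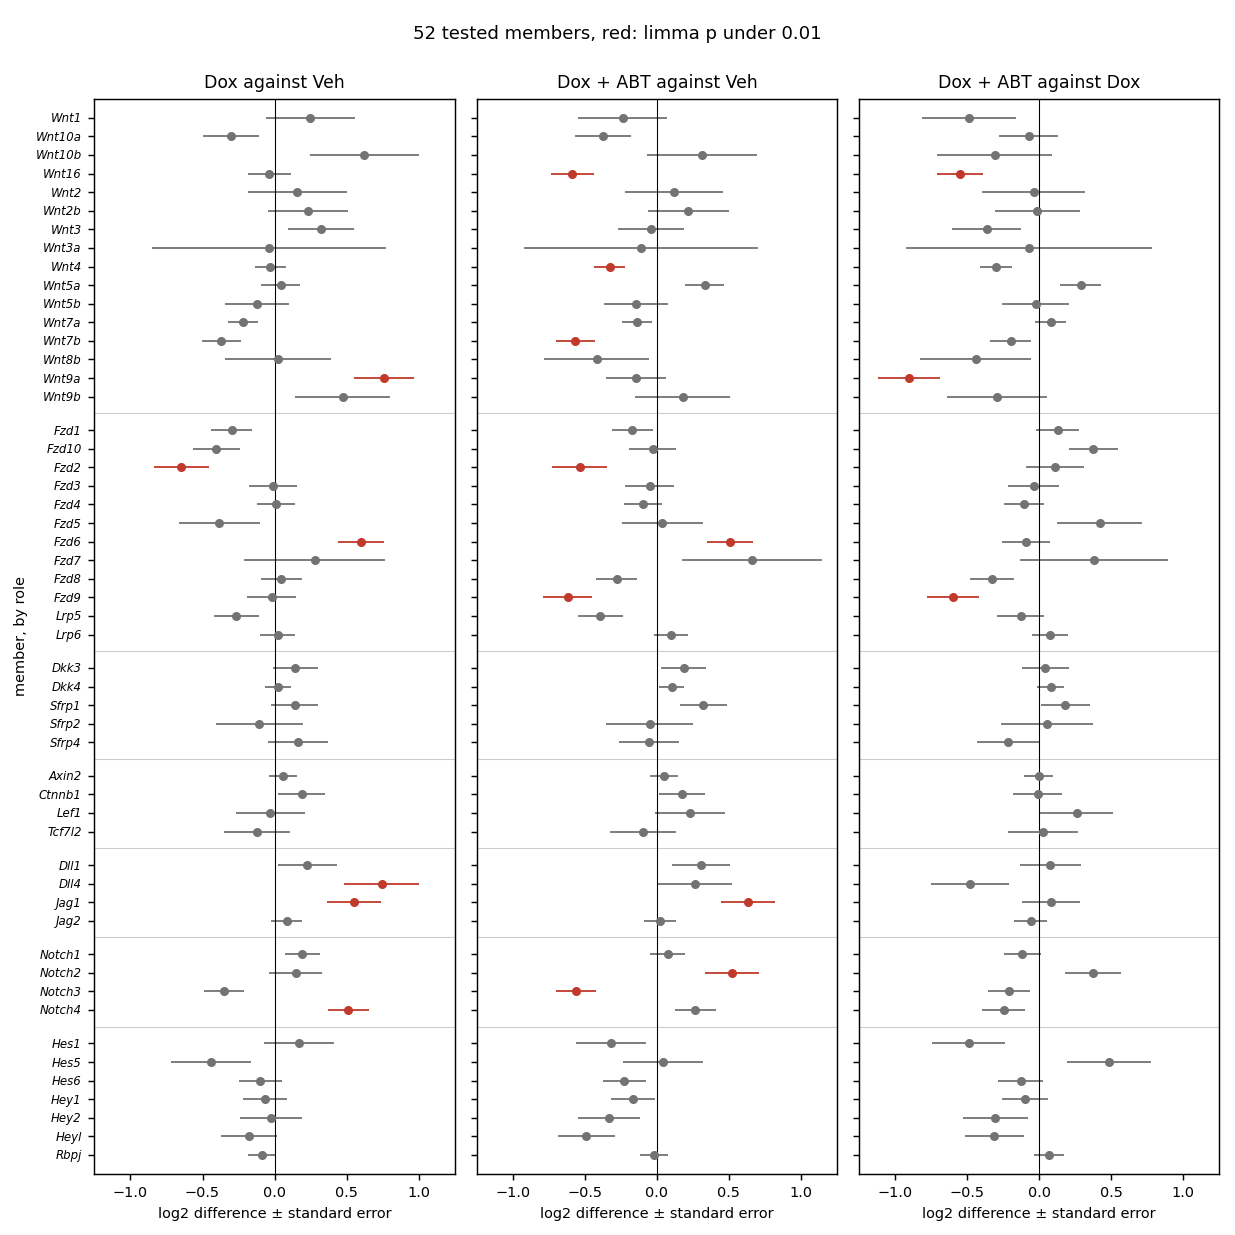
Log2 difference with its standard error for each of the 52 tested members, ordered by role, in the 3 comparisons, with members at limma p under 0.01 in red. The 6, 9 and 3 red points are ligands and receptors, and no secreted inhibitor, intracellular Wnt gene or Notch effector is among them.

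Among the 16 Wnt ligands tested, Wnt9a, a ligand known for joint and skeletal patterning, stood higher in Dox than in both other groups. It read 29.0, 37.7 and 62.5 normalized counts (lowest, median, highest) in Veh, 40.7, 56.2 and 112 in Dox, and 22.5, 33.1 and 63.9 in Dox + ABT. All 8 Dox rats were above the Veh median, although only 3 were above every Veh rat, and the Dox range was the widest. The highest were Dox 1 at 112, Dox 2 at 97.4 and Dox 10 at 91.5. Wnt9a rose by 0.76 on the log2 scale in Dox relative to Veh (SE 0.21, limma p = 0.000956, adjusted p = 0.164). Without Dox 1 and Dox 2 the difference was 0.53 (p = 0.0143), within the first kind of library 0.95 (p = 0.0062) and within the second 0.38 (p = 0.0996). In Dox + ABT it was lower than in Dox by a log2 difference of −0.90 (SE 0.22, limma p = 0.000268, adjusted p = 0.125), and this passed within the first kind of library (−1.15, p = 0.000407) and without Dox 1 and Dox 2 (−0.68, p = 0.00371). Dox + ABT differed from Veh by −0.14 (p = 0.49).

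Wnt16, a ligand known for limiting bone loss, was lower in Dox + ABT than in both other groups. Its lowest, median and highest values were 38.2, 49.6 and 62.5 in Veh, 37.1, 46.0 and 75.9 in Dox, and 19.9, 33.5 and 45.8 in Dox + ABT. In Dox + ABT 5 of 8 rats were below every Veh rat, and 5 were below every Dox rat. Wnt16 fell by a log2 difference of −0.59 relative to Veh (SE 0.15, limma p = 0.000512, adjusted p = 0.108) and of −0.55 relative to Dox (SE 0.16, limma p = 0.00166, adjusted p = 0.166). Both passed after adjustment for kind of library (−0.70, p = 0.000135, and −0.61, p = 0.000551). Both missed the threshold within the first kind (−0.56, p = 0.0105, and −0.49, p = 0.0166). The second also missed it without Dox 1 and Dox 2 (−0.42, p = 0.0136). It missed it as well in the fit with arrayWeights, which gives libraries of larger estimated spread less weight (−0.35, p = 0.0219). Between Dox and Veh it differed by −0.04 (p = 0.8).

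Wnt7b and Wnt4 fell in Dox + ABT relative to Veh. Wnt7b, which is known for vessel formation in the brain and for dendrite growth, read 1174, 1747 and 2181 in Veh, 1072, 1274 and 1682 in Dox, and 877, 1059 and 1866 in Dox + ABT. Of the Dox + ABT rats 6 of 8 were below every Veh rat. It fell in Dox + ABT relative to Veh by a log2 difference of −0.57 (SE 0.14, limma p = 0.000248, adjusted p = 0.108), and the difference was −0.32 (p = 0.00167) after adjustment for kind of library and −0.34 (p = 0.00498) within the first kind. In Dox the difference from Veh was −0.37 and did not pass (p = 0.0107), whereas it did after that adjustment (−0.25, p = 0.0068) and within the second kind (−0.37, p = 0.00649). Within the first kind it was −0.17 (p = 0.15), and it was −0.30 (p = 0.0528) without Dox 1 and Dox 2 and −0.33 (p = 0.0366) without Dox 1 and Dox 13. Wnt4, a ligand that acts in several tissues largely without beta-catenin, read 2414, 3806 and 4861 in Veh, 3020, 3743 and 3827 in Dox, and 2313, 3014 and 3428 in Dox + ABT. The 3 ranges overlapped. Wnt4 fell in Dox + ABT relative to Veh by a log2 difference of −0.33 (SE 0.11, limma p = 0.00433, adjusted p = 0.113), a call that was lost without any 1 of Veh 3, Dox + ABT 3 or Dox + ABT 11 (p up to 0.0143), with kind of library as a covariate (−0.28, p = 0.0194) and within the first kind of library (−0.15, p = 0.227). This call was also lost in the exact permutation test (p = 0.0198). Relative to Dox the Wnt4 difference was −0.30 and did not pass (limma p = 0.0122), whereas it passed in 10 alternatives, among them the first kind alone (−0.32, p = 0.00889), the fit with arrayWeights (−0.34, p = 0.00195) and the exact permutation test (p = 0.00171). With kind of library as a covariate it was −0.27 (p = 0.0201), and with the replicate number as a block −0.17 (p = 0.298). Both genes have 2 transcript rows, which were summed.

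The other Wnt ligands did not pass in any comparison. Wnt5a, the best known ligand that signals without beta-catenin, differed by 0.33 between Dox + ABT and Veh (p = 0.0205), and Wnt7a by −0.22 between Dox and Veh (p = 0.0433). Wnt10b averaged 51.9 ± 57.3 (SD) in the 8 Dox rats and 21.8 ± 6.69 (SD) in the 10 Veh rats, a log2 difference of 0.62 (SE 0.38, limma p = 0.112). Wnt3a was read at 0 to 28.2 normalized counts over the groups, and its 95% intervals spanned more than 1 log2 unit on either side of 0. Its highest values were in Dox + ABT 4 (28.2), Veh 6 (27.4) and Dox + ABT 2 (26.1), whose summed CA1 and CA3 field markers were 18480, 12930 and 10100.0. It was at 0 in Veh 9, Veh 10, Dox 13, Dox 14, Dox + ABT 11 and Dox + ABT 12, with sums of 2706 to 4702. Dox 9, with the lowest sum (2566), read 1.95, and Dox 10, with a sum of 12880, read 17.5. Wnt6 and Wnt11 had means under 5 and were not tested.

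Among the 12 Wnt receptors, Fzd6, known for orienting cells within a sheet, rose in both groups given doxorubicin. Its lowest, median and highest values were 44.0, 72.6 and 112 in Veh, 69.1, 110 and 137 in Dox, and 71.4, 93.3 and 133 in Dox + ABT. In Dox 4 of 8 rats were above every Veh rat, and the lower ends of both doxorubicin groups fell inside the Veh range. The log2 difference from Veh was 0.60 in Dox (SE 0.16, limma p = 0.000858, adjusted p = 0.157) and 0.51 in Dox + ABT (SE 0.16, limma p = 0.00373, adjusted p = 0.11). Fzd6 was the member that still passed between Dox and Veh without Dox 1 and Dox 2 (0.51, p = 0.00689). Adjusted for kind of library, the difference in Dox was 0.49 (p = 0.000807), and in Dox + ABT 0.28 (p = 0.0559). Within the first and the second kind taken separately the difference in Dox was 0.39 (p = 0.035) and 0.60 (p = 0.0178), and neither passed. The call in Dox + ABT also missed the threshold without Dox + ABT 12 (p = 0.0116). Within Veh, Fzd6 averaged 87.9 in libraries of the first kind and 59.1 in those of the second.

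Fzd2, a Frizzled used by Wnt5a in several tissues, moved in the opposite direction. It read 151, 267 and 323 normalized counts in Veh, 76.8, 185 and 203 in Dox, and 116, 171 and 215 in Dox + ABT. All 8 Dox rats were below the Veh median, and 2 were below every Veh rat, Dox 1 at 76.8 and Dox 2 at 86.8. Fzd2 fell by a log2 difference of −0.65 in Dox (SE 0.19, limma p = 0.002, adjusted p = 0.212), which was −0.35 (p = 0.0325) without these 2 rats, −0.46 (p = 0.0884) within the first kind of library and −0.57 (p = 0.000318) within the second. In Dox + ABT the difference from Veh was −0.54 (SE 0.19, limma p = 0.00856, adjusted p = 0.122). This last call was lost without any 1 of Veh 1, 2, 3, 4, 9 or 12 or of Dox + ABT 3, 5, 6, 11 or 12 (p up to 0.024), and was −0.28 (p = 0.111) after adjustment for kind of library. Veh libraries averaged 184 in the first kind and 289 in the second.

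Fzd9, a receptor known from hippocampal neurogenesis, was lower in Dox + ABT than in both other groups. It read 221, 382 and 485 in Veh, 248, 318 and 500 in Dox, and 156, 226 and 309 in Dox + ABT. The Dox + ABT values reached into the lower part of both other ranges. Fzd9 fell by a log2 difference of −0.62 relative to Veh (SE 0.17, limma p = 0.00117, adjusted p = 0.109) and of −0.60 relative to Dox (SE 0.18, limma p = 0.00257, adjusted p = 0.183). Within the first kind of library these were −0.23 (p = 0.287) and −0.62 (p = 0.00425), and the difference from Dox was −0.46 (p = 0.021) without Dox 1 and Dox 2. Between Dox and Veh the difference was −0.02 (p = 0.902) over all rats, 0.40 (p = 0.0868) within the first kind and −0.28 (p = 0.0373) within the second. The remaining receptors did not pass. Lrp6 differed from Veh by 0.02 in Dox (95% interval −0.22 to 0.27), and Lrp5 differed by −0.39 in Dox + ABT (p = 0.0177).

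**Figure D2:**
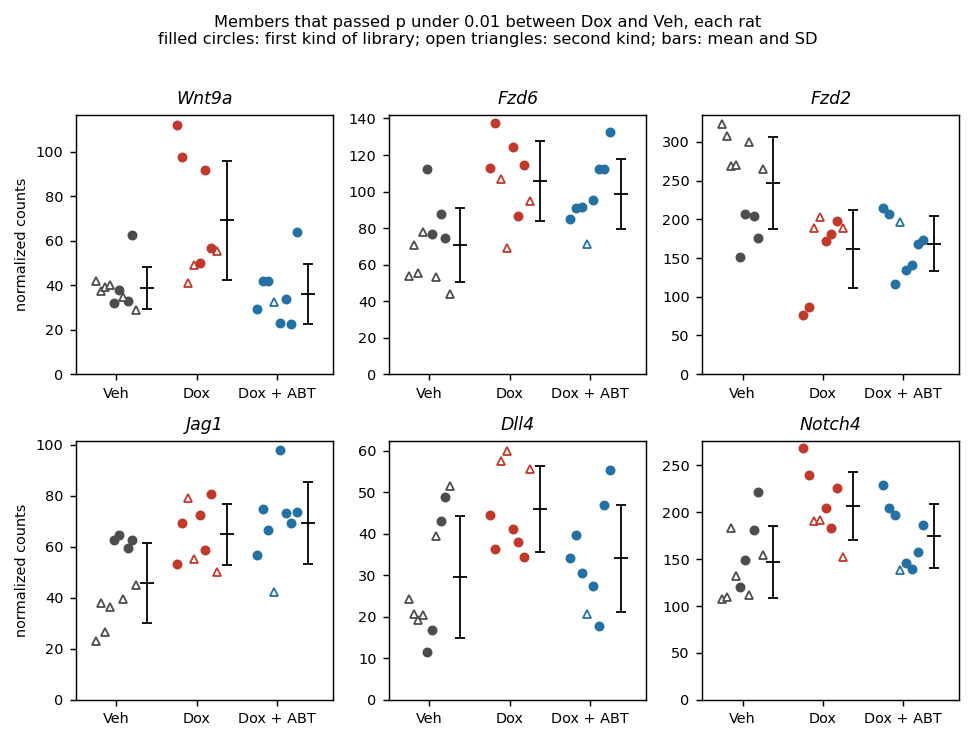
Normalized counts in each rat, by group, for the 6 members that passed between Dox and Veh, with filled circles for the first kind of library, open triangles for the second, and bars for the mean and SD. Groups overlap in every panel, Dox 1 and Dox 2 lie lowest for Fzd2 and among the highest for Wnt9a and Notch4, and for Jag1 the Veh values divide by kind of library.

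Of the 4 Notch ligands tested, Dll4 and Jag1 passed between Dox and Veh. Dll4 is the ligand that tip cells of growing vessels present to their neighbors. It read 11.5, 22.5 and 51.5 normalized counts in Veh, 34.3, 42.8 and 60.04 in Dox, and 17.7, 32.3 and 55.4 in Dox + ABT. The Veh values fell into 6 rats at or below 24.2 (Veh 1 to Veh 6) and 4 at or above 39.4 (Veh 9 to Veh 12), and every Dox rat was above the lower set. Dll4 rose by 0.74 on the log2 scale in Dox (SE 0.26, limma p = 0.0076, adjusted p = 0.317). The call was lost without any 1 of Veh 1, 2, 3, 4, 5 or 6 or of Dox 1, 5, 7 or 14 (p up to 0.018), without Dox 1 and Dox 2 together (0.79, p = 0.0108), and in the exact permutation test (p = 0.0159). It was 0.58 (p = 0.125) within the first kind of library and 1.06 (p = 0.00629) within the second. In Dox + ABT the difference from Veh was 0.26 (p = 0.316).

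Jag1, a ligand made in many tissues and in vessel walls, read 23.1, 42.2 and 64.5 in Veh, 50.1, 63.9 and 80.4 in Dox, and 42.3, 71.3 and 97.8 in Dox + ABT. In Dox + ABT 6 of 8 rats were above every Veh rat. The log2 difference from Veh was 0.55 in Dox (SE 0.19, limma p = 0.00706, adjusted p = 0.309) and 0.63 in Dox + ABT (SE 0.19, limma p = 0.00238, adjusted p = 0.109). The Veh rats of the first kind of library averaged 62.3 and those of the second 34.7. Within the first kind the differences were 0.08 (p = 0.625) in Dox and 0.21 (p = 0.195) in Dox + ABT, and within the second kind the difference in Dox was 0.81 (p = 0.00858). The call in Dox was lost without any 1 of Veh 1, 2, 3, 4 or 9 or of Dox 2, 5, 9 or 13 (p up to 0.017), without Dox 1 and Dox 2 together (0.57, p = 0.0114), and in the exact permutation test (p = 0.0148). Jag2 differed from Veh by 0.08 in Dox (95% interval −0.14 to 0.31). Dll3 had a mean under 5 and was not tested.

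All 4 Notch receptors were tested, and 3 of them passed in 1 comparison each. Notch4, which in the adult is known mainly from endothelium, read 108, 141 and 221 in Veh, 152, 198 and 268 in Dox, and 139, 172 and 229 in Dox + ABT. Each of the 8 Dox rats exceeded the Veh median, and 3 exceeded every Veh rat. Notch4 rose by 0.51 in Dox (SE 0.14, limma p = 0.00126, adjusted p = 0.186), and the difference was 0.44 in both kinds of library taken separately (p = 0.0238 and 0.0399) and 0.41 (p = 0.0125) without Dox 1 and Dox 2. Dox + ABT differed from Veh by 0.26 (p = 0.0739) and from Dox by −0.25 (p = 0.113).

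Notch3, the receptor of pericytes and of smooth muscle of vessels, read 235, 324 and 484 in Veh, 194, 283 and 328 in Dox, and 175, 227 and 294 in Dox + ABT. In Dox + ABT 5 of 8 rats were below every Veh rat. Notch3 fell in Dox + ABT by a log2 difference of −0.56 (SE 0.14, limma p = 0.000383, adjusted p = 0.108), which was −0.47 (p = 0.00303) after adjustment for kind of library. In Dox the difference was −0.35 (p = 0.0175). Notch2, found in quiescent stem cells and astrocytes, read 530, 987 and 1691 in Veh, 720, 1245 and 1648 in Dox, and 1082, 1461 and 1794 in Dox + ABT. Its Veh values averaged 1426 in libraries of the first kind and 816 in those of the second. Notch2 rose in Dox + ABT by 0.52 (SE 0.18, limma p = 0.00878, adjusted p = 0.123). This was 0.16 (p = 0.159) after adjustment for kind of library, and it was lost without any 1 of Veh 1, 2, 3, 4, 9 or 12 or any 1 Dox + ABT rat other than Dox + ABT 4 (p up to 0.0206). The Notch2 call was also lost in the exact permutation test (p = 0.0151). Notch1 did not pass in any comparison.

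**Figure D3:**
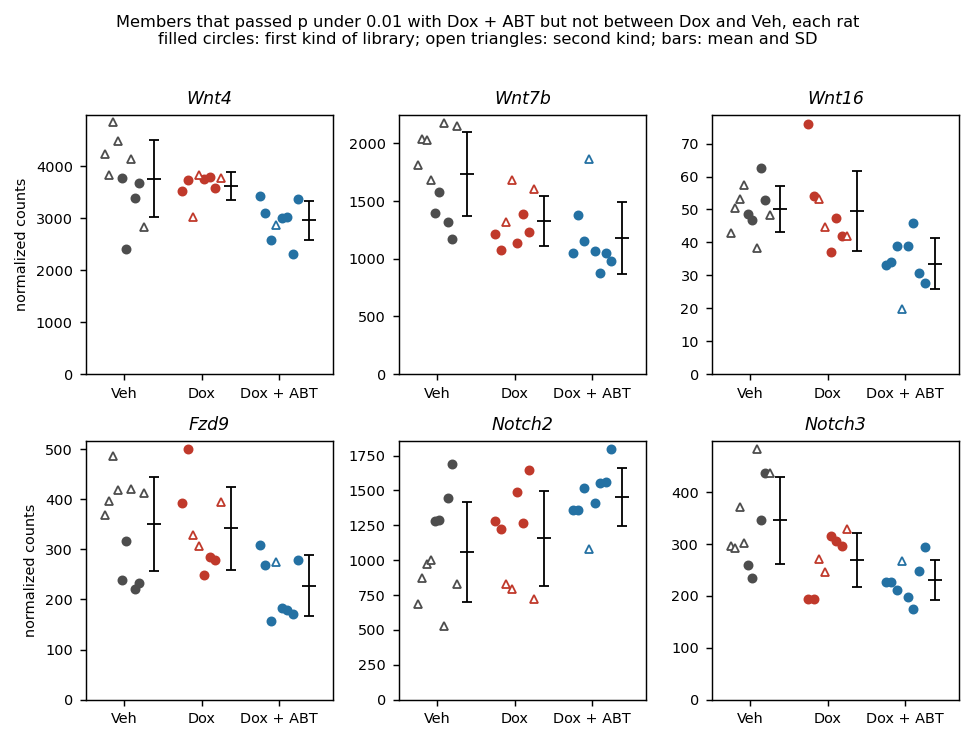
Normalized counts in each rat, by group, for the 6 members that passed with Dox + ABT but not between Dox and Veh, drawn as in the plot of members that passed between Dox and Veh. Wnt16 and Fzd9 are lower in Dox + ABT than in both other groups, and the Veh values of Notch2 divide into a high set from the first kind of library (mean 1426) and a low set from the second (mean 816).

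The genes through which both pathways act showed no call in the unweighted fit of all rats. None of the 7 Notch effectors passed there in any comparison, in each of which 7 of 7 were tested. Hes5, a repressor kept on in neural stem cells, read 70.8, 128 and 167 in Veh, 19.9, 127 and 163 in Dox, and 95.9, 124 and 170 in Dox + ABT. The 2 lowest Dox values were Dox 1 at 19.9 and Dox 2 at 46.9, both below every Veh rat, and the other 6 lay inside the Veh range. The log2 difference between Dox and Veh was −0.44 (95% interval −1.01 to 0.13, p = 0.124), and without Dox 1 and Dox 2 it was 0.07 (p = 0.658). Hes1 differed by 0.17 (95% interval −0.33 to 0.67), Hey2 by −0.02 (−0.46 to 0.41) and Rbpj by −0.09 (−0.29 to 0.11). Heyl, which is expressed in vessel mural cells, had the smallest p of the effectors between Dox + ABT and Veh (−0.49, p = 0.0186). It passed with arrayWeights (−0.60, p = 0.00101) and without any 1 of Veh 5, Veh 10, Veh 11 or Dox + ABT 4, whereas the difference was −0.16 (p = 0.294) with kind of library as a covariate and −0.10 (p = 0.54) within the first kind.

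Of the 4 intracellular Wnt genes none passed in any comparison in the unweighted fit of all rats. Axin2, whose promoter is shown above for its Tcf/Lef core, read 264, 348 and 410 in Veh, 289, 342 and 424 in Dox, and 295, 342 and 423 in Dox + ABT. The 3 ranges nearly coincided. The log2 difference from Veh was 0.06 in Dox (95% interval −0.14 to 0.25) and 0.05 in Dox + ABT (−0.15 to 0.25), so that differences beyond about 0.25 in either direction lay outside both intervals. Ctnnb1 differed by 0.19 in Dox (95% interval −0.14 to 0.51), and within Veh it averaged 4383 in libraries of the first kind and 2871 in those of the second. Ctnnb1 passed between Dox and Veh with arrayWeights (0.46, p = 0.00104), and between Dox + ABT and Dox within the first kind (−0.28, p = 0.00646, beside −0.01 over all rats). Lef1 differed by −0.03 (95% interval −0.52 to 0.46), with Dox 1 at 20.9. The 5 secreted inhibitors tested did not pass in that fit either. Dkk3, an atypical Dickkopf protein, differed by 0.14 in Dox (95% interval −0.17 to 0.46). Dkk2 and Sfrp5 had means under 5 and were not tested.

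**Figure D4:**
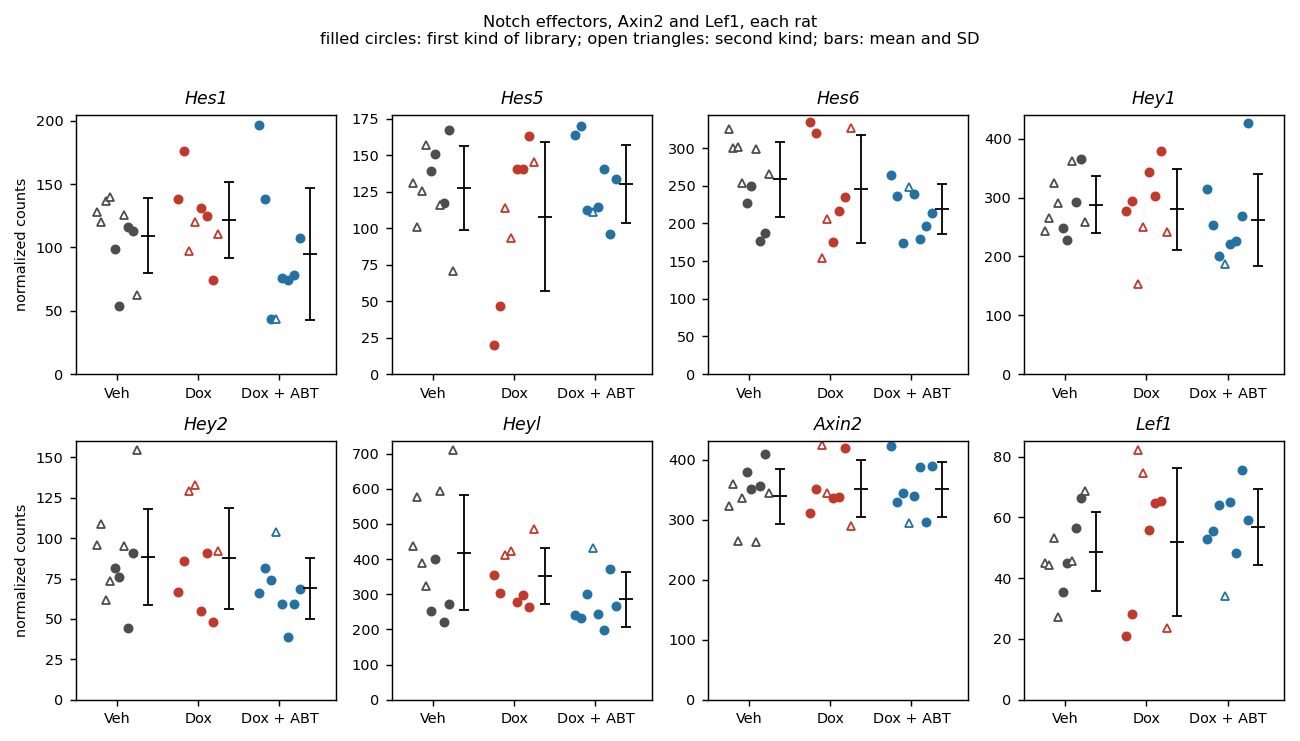
Normalized counts in each rat, by group, for 6 Hes and Hey genes, Axin2 and Lef1, drawn as in the plot of members that passed between Dox and Veh. The groups overlap in all 8 panels, and Dox 1 (19.9) and Dox 2 (46.9) lie below the other rats for Hes5.

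Further genes of the pathways were taken from lists of regulators and components that are not members. Of 49 other Wnt genes tested, none passed between Dox and Veh, where 2.87% of all genes did. Gsk3a, which phosphorylates beta-catenin (−0.25, p = 0.00687), its co-activator Bcl9l (−0.24, p = 0.00737) and its inhibitor Ctnnbip1 (−0.38, p = 0.00854) fell in Dox + ABT relative to Veh. The transcription factor Tcf7l1 fell in Dox + ABT relative to Dox (−0.46, p = 0.00164). Of 35 other Notch genes tested, none passed between Dox and Veh either. In Dox + ABT relative to Veh, the ubiquitin ligase Neurl1 fell (−0.49, p = 0.000925) and Psenen, a subunit of gamma-secretase, rose (0.27, p = 0.00816). In Dox + ABT relative to Dox, the protease Adam10, which makes the first cut in bound Notch, rose (0.38, p = 0.0053) and Lfng, which adds sugars to Notch, fell (−0.66, p = 0.001). None of these 8 had a limma adjusted p under 0.05. Between Dox + ABT and Veh the called shares were 6.12% of the Wnt list and 5.71% of the Notch list, below the 7.84% of all genes, and between Dox + ABT and Dox they were 2.04% and 5.71%, beside 4.03%. Lfng read 840 and 847 in Dox 1 and Dox 2 and 320 to 500 in the other Dox rats, and without those 2 rats it did not pass (−0.40, p = 0.013), nor did Adam10 (0.26, p = 0.0477). The difference of Ctnnbip1 between Dox + ABT and Veh, to which those rats do not belong, stayed at −0.38 without them, and its p was 0.0112. After adjustment for kind of library 3 of the 8 passed, Tcf7l1, Adam10 and Lfng.

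**Figure D5:**
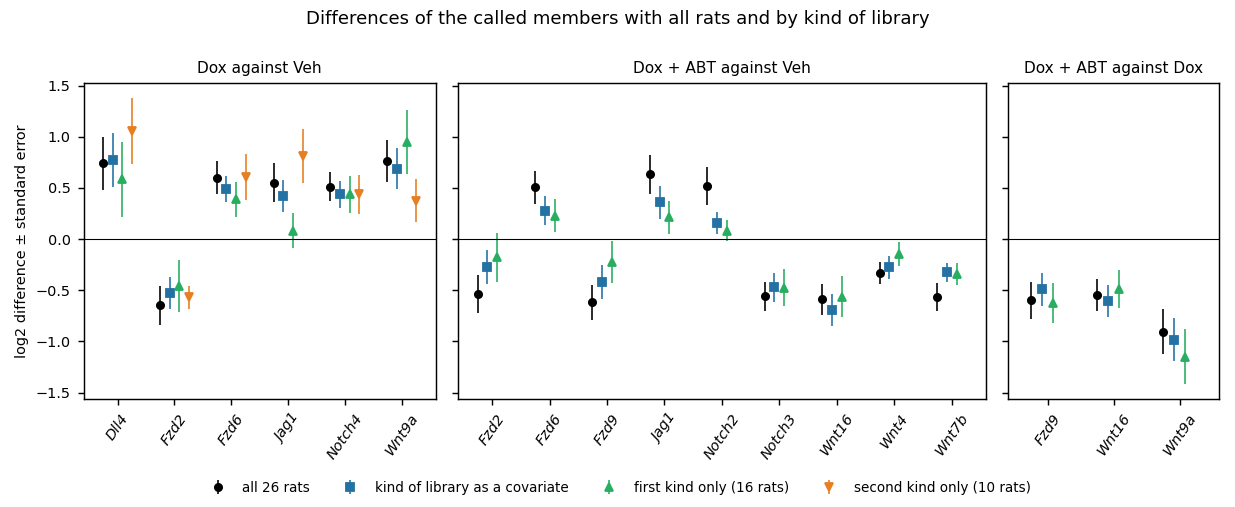
Log2 difference with its standard error for each called member, from all 26 rats, after adjustment for kind of library, and within each kind. All 9 members called in Dox + ABT relative to Veh lie nearer 0 within the first kind, from Wnt16 (−0.59 to −0.56) to Notch2 (0.52 to 0.08), as does Jag1 in Dox relative to Veh (0.55 to 0.08), whereas Wnt9a and Fzd9 in Dox + ABT relative to Dox do not.

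Cell type markers were read beside these results, since in bulk tissue fewer cells of a type and less RNA per cell cannot be told apart. Granule cell markers were present in every library, with summed levels of 8851 to 13390 in Veh, 9094 to 12290 in Dox and 8177 to 10840 in Dox + ABT. Of the markers read, C1ql2 (granule cell), Neurod1 (newborn neuron), Aldh1l1 (astrocyte), Csf1r (microglia) and Cspg4 (oligodendrocyte precursor) fell in Dox + ABT relative to Veh, with log2 differences of −0.46, −0.33, −0.47, −0.48 and −0.35. These were 1 called marker per list, and the other markers of the same lists did not pass. The median differences of the lists were −0.10, −0.31, −0.17, −0.32 and −0.12, and among the markers that did not pass were Prox1 (0.22) and Dcx (0.21) as well as Sox11 (−0.30), Igfbpl1 (−0.32) and Cx3cr1 (−0.34). Neurod1 also fell relative to Dox (−0.38, p = 0.0014), and the newborn neuron sums ran from 818 to 1055 in Veh, 804 to 1148 in Dox and 674 to 884 in Dox + ABT. Dll4, Notch4 and Jag1 are also vessel genes. None of the 4 endothelial markers tested passed in any comparison, and their summed level ran from 875 to 3225 in Veh, 1198 to 2496 in Dox and 797 to 2145 in Dox + ABT, with medians of 1505, 2024 and 1374. The endothelial marker Flt1 divided the Veh rats as Dll4 did, at 242 to 425 in Veh 1 to Veh 6 and 600 to 1281 in Veh 9 to Veh 12. Dox 1 and Dox 2, the Dox rats with the highest Notch4, had the lowest endothelial sums of that group, 1288 and 1198. None of the 5 mural markers passed, with sums of 524 to 1217, 700 to 836 and 593 to 993. Of 6 astrocyte markers, Aldh1l1, Aqp4 and Gfap were lower in Dox, whereas Slc1a3 (0.03), Gja1 (0.06) and Sox9 (0.17) did not pass, with sums of 36660 to 57310 in Veh, 30400 to 37950 in Dox and 35300 to 51330 in Dox + ABT. Of 4 microglial markers Aif1 and Cx3cr1 were lower in Dox, with sums of 2048 to 4286, 1760 to 3016 and 1923 to 3333, and Dox 1 and Dox 2 had the lowest of the Dox group. The markers of the CA1 and CA3 fields ran from 2706 to 12930 in Veh, 2566 to 12880 in Dox and 2871 to 18480 in Dox + ABT. The part of these cell types in the results was not tested.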

How the data were processed

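DG RNA from 26 rats was sequenced, 1 library per rat. Per the labels and methods, the authors aligned reads to rn6 with STAR 2.5.3a in Partek Flow and deposited normalized counts, a signal obtained by dividing counts by Median Ratio factors. The submitters' processing notes also name DESeq2. The 24012 rows were summed by gene ID to 17910, and 15595 genes with a mean of at least 5 were kept. Since the values are not raw counts, count models were not run. Whole reads were found for 70.8% to 74.0% of low values of genes with 1 row but 7.15% to 10.6% of those with several rows (tolerance 0.02 read), so reads were not recovered and depth is an estimate. Intervals cover the spread between rats.

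Groups came from the treatment labels. All 26 rats entered 1 fit of 3 groups in limma 3.58.1 (R 4.3.3) on log2(value + 1) with a variance trend, two-sided, no covariate. Log2 differences are on that scale and understate changes of low genes. A call is an unadjusted p under 0.01, the study's threshold, with Benjamini-Hochberg values over all tested genes beside it. The fit was tested on simulated data in which genes varied independently and libraries had no kinds. That test cannot show how the fit behaves with the kinds of library found here. Libraries correlated at 0.941 to 0.987 and 0 pairs were identical.

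Members and lists were chosen with earlier results of these data known. Named genes are the members called in any comparison, in each role the member with the highest mean and that with the smallest p between Dox and Veh, the called list genes, and the members under the minimum mean (normalized counts are not per transcript length, so levels of different genes are not compared). Sfrp1, Flt1, Wnt5a, Wnt7a, Wnt10b, Wnt3a, Lrp5, Axin2, Lef1, Hes1, Hey2, Rbpj and Notch1 were named after their values were seen. Alternatives were other pseudocounts, filters, scalings (trimmed means, quantiles), weights, 2-group fits, an exact permutation test, the replicate number as a block, the kind of library, and leaving out each rat. Leaving out Dox 1 with Dox 2 or with Dox 13, and the second kind of library alone, were added after seeing the data.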

Additional observations from a re-analysis of the deposited data

Results flagged for a closer look

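Each member's values were screened within each group for a single rat far from the rest by Dixon's test at its 95% limit on the log2 scale. Of 156 sets of values 9 held such a rat, and chance alone gives about 1 in 20. Dll1, a Notch ligand, was lowest in Dox 7 at 89.4 normalized counts, with the other Dox rats at 138 to 191. Fzd3 was also lowest in Dox 7, at 150.0 against 187 to 228. Fzd4, a receptor of brain endothelium, was highest in Dox 5 at 366, against 161 to 222. Sfrp2 was lowest in Veh 1 at 11, against 19.4 to 31.3. Tcf7l2 was lowest in Veh 10 at 29.8, against 69.0 to 138, and in Dox + ABT 12 at 42.2, against 71.5 to 115. Wnt10a was lowest in Veh 6 at 37.1, against 67.7 to 86.9. Wnt4 was lowest in Dox 5 at 3020.0, with the others from 3530.0 to 3830.0. Wnt9a was highest in Veh 11 at 62.5, against 29.0 to 41.8.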

How the results depend on the processing

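The counts of members called were 6 (Dox against Veh), 9 (Dox + ABT against Veh) and 3 (Dox + ABT against Dox). At an adjusted p under 0.05 they were 0, 0 and 0. With arrayWeights they were 10, 14 and 5 (19.2%, 26.9% and 9.62% of members), all below the shares of all genes (20.2%, 34.0% and 10.3%). Within the first kind of library they were 1, 2 and 6 (1.92%, 3.85% and 11.5%, against 4.76%, 1.1% and 8.21% of all genes), so that between Dox and Veh the members' share exceeded that of all genes with all rats but not under these 2 settings, and with the kind as a covariate 6, 3 and 4 (11.5%, 5.77% and 7.69%, against 2.7%, 1.37% and 4.76%). Within the second kind alone the first was 4 (7.69% against 3.57%). Leaving out Dox 1 and Dox 2 together gave 1, 9 and 2 (1.92%, 17.3% and 3.85%, against 1.16%, 8.3% and 2.97%), and leaving out Dox 1 and Dox 13 together gave 4, 9 and 3 (7.69%, 17.3% and 5.77%, against 1.41%, 7.55% and 3.53%). Leaving out each rat in turn gave 4 to 8, 6 to 11 and 3 to 5, where the 5 came without Dox + ABT 1. In the same fits the shares of all genes that passed also moved, from 1.71% to 4.53%, 4.46% to 13.7% and 2.69% to 5.05%. The replicate block gave 8, 5 and 5, where 4.91%, 7.57% and 2.58% of all genes passed. The numbers name different rats: of 16 same-numbered pairs 6 had a correlation of deviations over 0.1 (range −0.222 to 0.442), and 1 of 23 rats correlated best with a rat of its own number. No direction of a called difference reversed under any alternative run. Of the named members' called results, 665 recomputed values kept their call and 97 lost it, and of those not called 1489 stayed so and 35 gained a call. Rescaling by trimmed means moved the median of all genes by at most 0.00928 on the log2 scale. The causes were not tested. Members near the minimum mean of 5 rest on few reads.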
